A study of Saccharomyces cerevisiae with 6 samples.

Results

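The transcripts described here are those of the mitochondrial genome of budding yeast (Saccharomyces cerevisiae), measured by RNA-seq in growing and in quiescent cells. They were taken by row name from a table of 9891 features: names beginning with Q0, 15S_ or 21S_, the row RPM1, and tRNA names that carry the chromosome letter Q. The rule named 55 rows, of which 8 had no read in any library and were dropped, leaving 47. They comprised 8 mRNA rows, 2 open reading frames inside introns (intron ORFs), 10 other short or uncharacterised ORFs, 2 rRNAs, the RNA of RNase P and 24 tRNAs. Read to the letter, with no copy digit allowed after the Q, the rule gives 39 rows.

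There were 3 libraries from log-phase cells, collected at an OD600 of 0.8 to 1.0, and 3 from the quiescent fraction of day 7 cultures, purified on a Percoll density gradient and then on a fresh one. All cells were of strain YCH406, a MATa strain grown at 30 C in YPD with adenine and ampicillin. In both groups the histone gene pairs (hta1-htb1) and (hta2-htb2) on the chromosomes are replaced by LEU2 and TRP1, and the cells make histones H2A and H2B from the plasmids pSAB6 (HTA1-HTB1-URA3) and pZS145 (HTA1-Flag-HTB1::HIS3). Both also carry RPB3-9Myc::hphNT1, a tagged RNA polymerase II subunit, beside alleles of his3, leu2, ura3 and trp1. The log cells grew in glucose, a sugar on which this yeast mostly ferments.

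In Saccharomyces cerevisiae the mitochondrial genome encodes a few core subunits of the respiratory chain and ATP synthase, 1 ribosomal protein, both mitochondrial rRNAs, a full set of tRNAs and the RNA subunit of mitochondrial RNase P. A nuclear-encoded phage-like RNA polymerase, Rpo41, with its partner Mtf1, starts transcription at a short conserved promoter sequence. The long precursors are then cut, largely at tRNAs, and mRNA 3′ ends form at a conserved dodecamer. The unspliced introns of COX1, COB and the 21S rRNA gene hold ORFs for maturases and endonucleases.

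The promoter and processing sequences that lie beside the rows were read from the RefSeq R64 assembly, the build named in the submitters' processing notes. The mitochondrial chromosome (chrMT) has 85779 bases and a GC content of 17.1%. The promoter nonanucleotide ATATAAGTA occurred at 14 places on both strands, 11 of them on the plus strand, which also carries every positioned row except 1 tRNA. It lay within 750 bases upstream of 8 of the 38 rows with reads that have a position in the annotation. Of all windows of that length on both strands, 5.72% held it, which understates the share on the plus strand. Among the 8 rows, RPM1 and tM(CAU)Q2 lie after the same site. The sites below are shown because they divide the genome into the stretches compared later. Each is the plus strand with 9 bases on either side, the motif in capitals, and is named for the first row downstream.
15S rRNA (chrMT:6453-6479): tttattattATATAAGTAataaataat
COX1 (chrMT:13340-13366): taagtattgATATAAGTAatagatata
tE(UUC)Q (chrMT:34869-34895): agaaatattATATAAGTAatatataaa
OLI1 (chrMT:46140-46166): tacacatttATATAAGTAtatatatat
21S rRNA (chrMT:57991-58017): ttattatatATATAAGTAgtaaaaagt
tL(UAA)Q (chrMT:65375-65401): aataatgttATATAAGTAataatataa
tM(CAU)Q2 (chrMT:85005-85031): agtaatataATATAAGTAttaatatat

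The motif ended directly at the 21S rRNA gene, 76 bases before the 15S rRNA gene and 13 bases before tM(CAU)Q2. It was farther from the protein-coding genes, at 461 bases for COX1 and 566 bases for OLI1. A match is a description of these letters only.

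The processing dodecamer was found as the 12-letter word held by the most mRNA genes at or after their annotated end, in a window of 610 bases from 10 bases before it. This word, AATAATATTCTT, lay there in 6 of 8 mRNA genes, a count that the search itself fixed. It occurred 11 times in the genome, 9 of them on the plus strand. The same window of both intron ORFs and Q0255 held it, and that of 0 of 24 tRNA genes. Of all windows of that length on both strands, 3.87% held it, which understates the share on the plus strand. The exceptions among mRNAs were OLI1 and ATP8. The sites of the mRNA and intron ORF rows are printed on the plus strand, the dodecamer in capitals. Because the word was chosen at mRNA ends, its presence there cannot set mRNA rows apart from tRNA rows.
COX1 (chrMT:26761-26790): taatataatAATAATATTCTTataaaaata
ATP6 (chrMT:29344-29373): cccccttttAATAATATTCTTttatctaat
COB (chrMT:43736-43765): taatactttAATAATATTCTTaaaaataat
VAR1 (chrMT:50668-50697): aataaataaAATAATATTCTTaatttttat
COX2 (chrMT:74567-74596): aataattatAATAATATTCTTaaatataat
COX3 (chrMT:80114-80143): tattattatAATAATATTCTTacaaatata
AI5_BETA (chrMT:25286-25315): tgttaattaAATAATATTCTTtttttttta
SCEI (chrMT:61716-61745): cttttttaaAATAATATTCTTatttttatt

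Libraries held 8894585 to 14213993 counts. The labels fitted the markers: 7 of 7 stationary and quiescent genes rose in quiescent cells, 5 of 5 growth genes fell, and the 4 a mating type genes were detected in log cells. These 4 genes fell in quiescent cells, with log2 fold changes from -5.08 to -2.10, while the alpha type gene STE3, below the minimum for the test, was at 1.80 ± 0.633 CPM in log and 8.32 ± 1.62 CPM in quiescent cells (SD, n = 3 each). After rRNA depletion, nuclear ribosomal DNA rows still held 4.68% to 19.3% of the reads of a log library and 16.2% to 38.5% of those of a quiescent one.

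Mitochondrial transcripts took a larger part of the RNA in quiescent cells. In the log libraries they held 0.816%, 0.840% and 0.520% of counts, and in the quiescent libraries 4.83%, 1.98% and 5.62%, with values here and below always in the order of replicates 1, 2 and 3. Every quiescent library lay above every log library, and quiescent replicate 2 was the lowest of its group. In reads this was 73901 to 101099 per log library and 250996 to 688361 per quiescent library. In bulk RNA, more mitochondrial RNA per cell and less of the other RNA per cell cannot be told apart, and levels below are relative to the rest of each library.

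Of the 47 rows, 41 reached the minimum mean of 1 TPM (counts per length, scaled to the same sum in each library) and were tested with the edgeR quasi-likelihood test. All 41 also had a mean of at least 1 TPM in log cells. Of these, 38 rose in quiescent cells, 0 fell and 3 did not pass the threshold of 0.05 on the adjusted p-value. Over all 7305 rows tested, 32.8% rose, 35.2% fell and 67.9% changed in either direction. At an unadjusted p under 0.05, 38 were higher and 0 lower in quiescent cells, and DESeq2 also called 38 risen and 0 fallen, against 34.7% and 34.8% of all rows. The median log2 fold change (quiescent minus log) was 3.11 over the 41 rows and -0.02 over all rows tested. On the TPM scale, where limma on log2(TPM + 1) shifted the median of all rows by -0.77, 26 of the 41 rose and 2 fell, against 14.5% and 53.9% of all rows.

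The classes stood at different heights. The median log2 fold change was 1.51 for mRNAs, 1.93 for the intron ORFs, 3.67 for rRNAs, 4.19 for the RNase P RNA and 3.43 for tRNAs. With limma on log2(TPM + 1) the medians were 0.38, 0.79, 2.51, 2.91 and 1.95 in the same order of classes. The 21S and 15S rRNA rows, RPM1 and the 24 tRNA rows all rose, as did both intron ORFs and 7 of 8 mRNA rows. In normalized CPM (counts scaled to library size, with TMM factors) the groups did not overlap in 34 of 47 rows, among them 21 of 24 tRNAs and 6 of 8 mRNAs, with quiescent cells higher in all 34. Of all 9371 rows with reads, 63.2% did not overlap in CPM, and 32.3% did so with quiescent cells higher. On the TPM scale 18 of 47 rows did not overlap, all higher in quiescent cells, 11 of them tRNAs and 3 mRNAs, against 60.9% of all rows in either direction and 13.2% with quiescent cells higher.

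**Figure D1:**
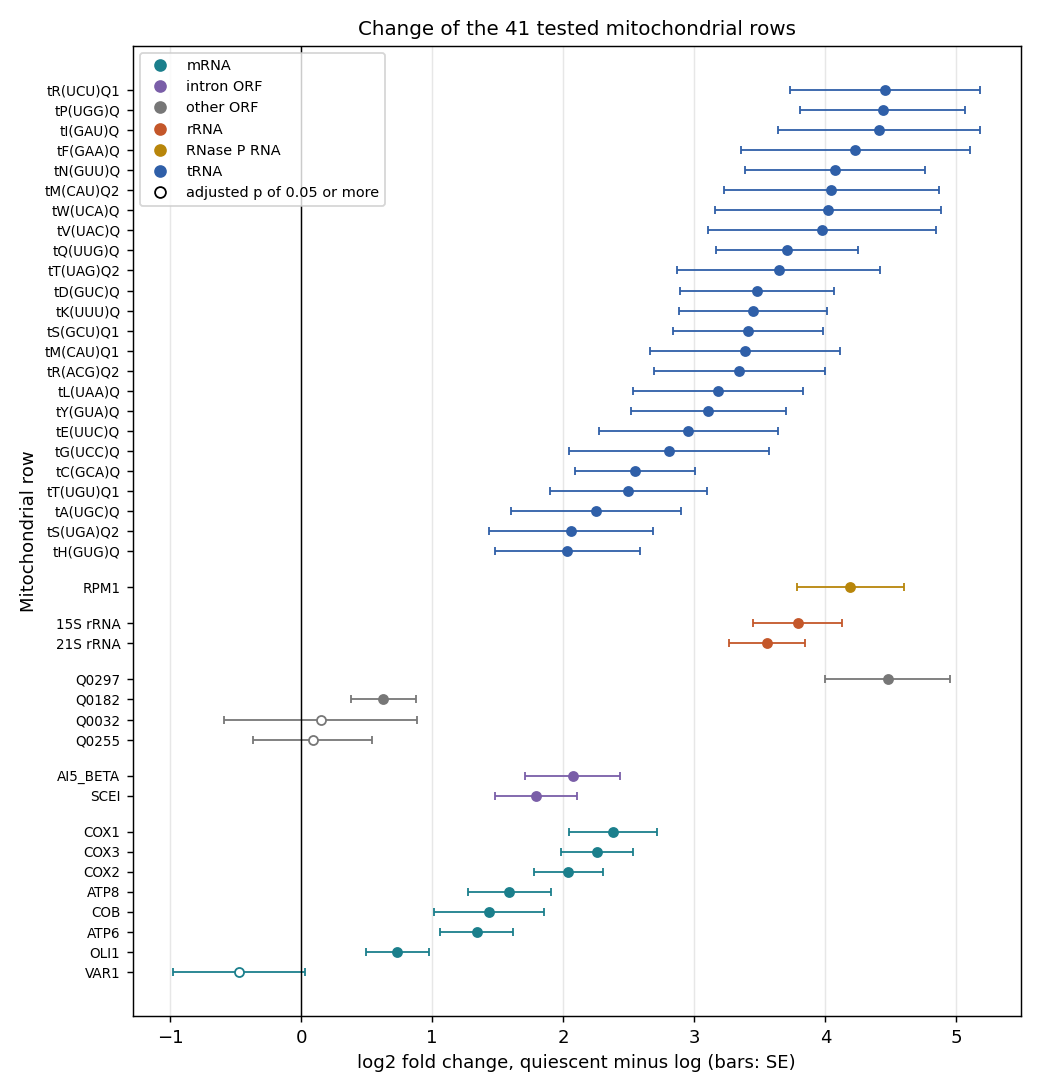
Log2 fold change (quiescent minus log, x axis) of each of the 41 tested mitochondrial rows, with its SE, coloured by class; open circles did not pass the adjusted p threshold. The tRNA rows lie between 2.03 and 4.45, the rRNA rows and RPM1 between 3.55 and 4.19, and the mRNA rows between -0.47 and 2.38.

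The 3 subunits of cytochrome c oxidase, the terminal enzyme of the respiratory chain, showed the largest changes among the mRNAs. COX1 (Q0045, chrMT:13818-26701, plus strand), the catalytic subunit, was at 2392, 2607 and 2006 CPM in log and at 14877, 8460 and 13127 CPM in quiescent libraries. The quiescent values were all above the log values, and COX1 rose by 2.38 (SE 0.34, adjusted p = 0.000124). COX2 (Q0250, chrMT:73758-74513, on the plus strand like all 8 mRNA genes), the subunit that receives electrons from cytochrome c, was at 270, 336 and 284 CPM in log and 1438, 863 and 1353 CPM in quiescent libraries. It rose by 2.04 (SE 0.26) with no overlap. COX3 (Q0275, chrMT:79213-80022), the third core subunit, went from 171, 162 and 154 CPM to 865, 503 and 962 CPM and rose by 2.26 (SE 0.27). These 3 were also the mRNAs whose groups did not overlap on the TPM scale and the only mRNA rows called as risen there.

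COB (Q0105, chrMT:36540-43647) encodes cytochrome b of the bc1 complex. Its level was 665, 739 and 570 CPM in log and 1956, 699 and 2683 CPM in quiescent libraries. Quiescent replicate 2 lay within the log range, so the groups overlapped. COB rose by 1.43 (SE 0.42, adjusted p = 0.0114) in the edgeR test, and was at 0.22 with an adjusted p of 0.654 on the TPM scale.

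The ATP synthase subunits changed less than the oxidase subunits. ATP6 (Q0085, chrMT:28487-29266) was at 109, 127 and 102 CPM in log and 310, 174 and 371 CPM in quiescent libraries, and rose by 1.34 (SE 0.27). ATP8 (Q0080, chrMT:27666-27812) was at 10.9, 14.4 and 8.67 CPM and then 40.6, 19.6 and 42.1 CPM, and rose by 1.59 (SE 0.31). In CPM the groups overlapped for neither row, although both overlapped in TPM and lost their call there. OLI1 (Q0130, chrMT:46723-46953), the ring subunit also known as Atp9, was at 215, 225 and 185 CPM in log and 396, 237 and 407 CPM in quiescent libraries. OLI1 rose by 0.74 (SE 0.24, adjusted p = 0.0206), a direction that turned on the TPM scale (-0.32, adjusted p = 0.507). The OLI1 call was also lost with total-count scaling (0.50, adjusted p = 0.202), with no filter on low rows (0.58, adjusted p = 0.0597) and when log replicate 1 or 3 or quiescent replicate 1 or 3 was left out (adjusted p = 0.0512, 0.0533, 0.0699 and 0.0509).

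VAR1 (Q0140, chrMT:48901-50097), the ribosomal protein of the small mitochondrial subunit, was the mRNA that did not pass. It was at 22.5, 42.8 and 18.9 CPM in log and 32.6, 6.20 and 21.9 CPM in quiescent libraries. The groups overlapped widely, with quiescent replicate 2 the lowest of all 6. The log2 fold change was -0.47 (SE 0.50, adjusted p = 0.42), and on the TPM scale VAR1 was called as fallen (-1.37, adjusted p = 0.00525). VAR1 had the lowest coding GC content of the 8 mRNAs, 10.4%, and OLI1 the highest, 33.3%. The part of base composition in their values was not tested.

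**Figure D2:**
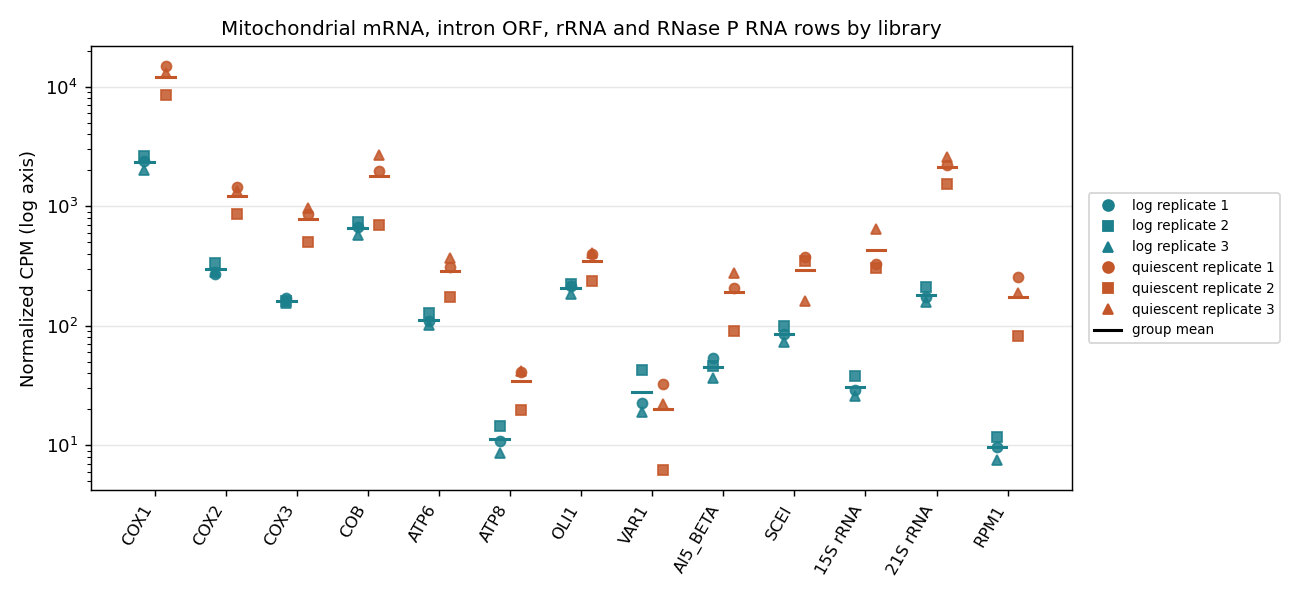
Normalized CPM (log axis) of the mRNA, intron ORF, rRNA and RNase P RNA rows in each of the 6 libraries, with short lines for group means (n = 3 each). Quiescent replicate 2 is the lowest quiescent library in all 8 mRNA rows, and only COB and VAR1 overlap between the groups among them.

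Per length, the order of the mRNAs differed between the states. As a share of mitochondrial TPM, OLI1 led in log cells with 2.80% ± 0.479 (SD, n = 3), followed by COX2 with 1.23% ± 0.319. In quiescent cells COX2 had 0.662% ± 0.365 and OLI1 0.605% ± 0.317. Within libraries, OLI1 exceeded COX2 in all 3 log libraries and COX2 exceeded OLI1 in all 3 quiescent ones (539 against 487, 275.3 against 248.5 and 312 against 308 TPM). VAR1 was last of the 8 in both states, with 0.0705% ± 0.0253 and 0.00589% ± 0.00407. The lengths are genomic spans, and introns make up 87.5% of the span of COX1 and 83.7% of that of COB. Whether reads from introns were counted in these rows is not known. How far their level per length stands for that of the spliced mRNAs is thus not known either.

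Summed over the 8 rows, mRNAs were at 3854, 4254 and 3328 CPM in log and 19916, 10962 and 18966 CPM in quiescent libraries, without overlap. Most of this sum was the COX1 row, at a mean of 2335 CPM in log and 12155 CPM in quiescent cells. The same sum per length was 931 ± 89.8 TPM and 1360 ± 512 TPM (SD, n = 3 each), and there the groups overlapped.

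The 2 intron ORFs with reads lie inside other rows. AI5_BETA (Q0075), an ORF in an intron of COX1, was at 53.3, 46.4 and 36.2 CPM in log and 208, 90.4 and 273 CPM in quiescent libraries, and rose by 2.07 (SE 0.36). SCEI (Q0160), the homing endonuclease I-SceI in the 21S rRNA intron, was at 84.4, 98.7 and 73.1 CPM and then 378, 348 and 159 CPM, and rose by 1.79 (SE 0.31). Both were higher in every quiescent library than in any log library, and the SCEI call was lost on the TPM scale (0.68, adjusted p = 0.188). For SCEI the lowest quiescent library was replicate 3, not replicate 2. The other 8 intron ORFs (AI1, AI2, AI3, AI4, AI5_ALPHA, BI2, BI3 and BI4) were at 0 in all 6 libraries. Their annotated spans begin at the start of COX1 or COB and lie within those genes, both of which had reads in each library, so a 0 there does not show that these sequences were unread.

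I-SceI cuts copies of the 21S rRNA gene that lack the intron. The 18 bases across the joined exons were taken as its recognition sequence, so their 1 match there was fixed by that choice. In the unspliced gene, whose intron has 1143 bases, they are split, and 0 matches were found. The sequence is printed with the 8 bases of the first exon in lower case and the 10 bases of the second in capitals. It is printed because the intron that holds SCEI interrupts it in the unspliced gene.
I-SceI site: tagggataACAGGGTAAT

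Both mitochondrial rRNA rows rose, with log2 fold changes above that of any mRNA row. The 21S rRNA (chrMT:58009-62447), of the large subunit, was at 175, 209 and 157.9 CPM in log and 2220, 1546 and 2602 CPM in quiescent libraries. The 15S rRNA (chrMT:6546-8194), of the small subunit, was at 29.2, 37.6 and 25.8 CPM and then 329, 304 and 646 CPM. They rose by 3.55 (SE 0.29) and 3.79 (SE 0.34), with no overlap in CPM or TPM. The libraries had been depleted of rRNA before sequencing, and nuclear ribosomal DNA rows took 12.7% ± 7.39 of log counts and 29.9% ± 12.01 of quiescent counts (SD, n = 3 each, overlapping). The part of depletion in the mitochondrial rRNA result was not tested.

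RPM1 (chrMT:85295-85777) is the RNA subunit of mitochondrial RNase P, which cuts the 5′ ends of mitochondrial tRNAs. It was at 9.59, 11.7 and 7.58 CPM in log and 256, 81.2 and 189 CPM in quiescent libraries. The lowest quiescent library was well above the highest log library, and RPM1 rose by 4.19 (SE 0.41, adjusted p = 8.19e-06).

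All 24 tRNA rows rose, by 2.03 to 4.45, with adjusted p-values from 0.000127 to 0.0141. On the TPM scale 18 of 24 rose, by limma. The calls of tA(UGC)Q, tE(UUC)Q, tG(UCC)Q, tH(GUG)Q, tS(UGA)Q2 and tT(UGU)Q1 were lost there, at 0.56 to 1.34 with adjusted p-values from 0.0533 to 0.404. Their counts ranged from 52 to 164127 reads per library. Of the nuclear tRNA rows in the same test, 46 rose, 69 fell and 160 did not pass, with a median of 0.18. Summed over rows, mitochondrial tRNAs came to 2793, 2596 and 1701 CPM in log and 18835, 8304 and 50056 CPM in quiescent libraries. Nuclear tRNAs came to 58200 ± 23373 and 85798 ± 27970 CPM (SD, n = 3 each), and overlapped. Set against the nuclear tRNAs of the same library, mitochondrial tRNAs were at 3.45%, 4.39% and 4.95% in log and 21.9%, 14.4% and 44.1% in quiescent cells, without overlap.

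The tRNA genes printed below are tD(GUC)Q, the most abundant row, tQ(UUG)Q, another of the 4 most abundant, and the rows with the 2 largest (tR(UCU)Q1, tP(UGG)Q) and the 2 smallest (tH(GUG)Q, tS(UGA)Q2) changes. They are given in the DNA sense, from the RefSeq R64 genome, with the anticodon in capitals. All are on the plus strand.
tD(GUC)Q (chrMT:68322-68396): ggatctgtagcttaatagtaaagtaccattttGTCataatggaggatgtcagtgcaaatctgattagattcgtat
tQ(UUG)Q (chrMT:66210-66285): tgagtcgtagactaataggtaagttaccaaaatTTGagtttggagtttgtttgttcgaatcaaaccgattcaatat
tR(UCU)Q1 (chrMT:67309-67381): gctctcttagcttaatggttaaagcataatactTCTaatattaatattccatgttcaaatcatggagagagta
tP(UGG)Q (chrMT:731-802): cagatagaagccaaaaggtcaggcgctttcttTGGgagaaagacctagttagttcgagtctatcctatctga
tH(GUG)Q (chrMT:64596-64670): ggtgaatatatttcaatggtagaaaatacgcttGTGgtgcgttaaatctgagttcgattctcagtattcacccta
tS(UGA)Q2 (chrMT:48201-48290): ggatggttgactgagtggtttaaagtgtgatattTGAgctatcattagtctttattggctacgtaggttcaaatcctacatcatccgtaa

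The aspartate tRNA row tD(GUC)Q was the most abundant in both states. It was at 1023, 975 and 506 CPM in log and 6672, 3601 and 17615 CPM in quiescent libraries. It rose by 3.48 (SE 0.59). Its share of mitochondrial TPM was 33.2% ± 4.30 in log and 37.4% ± 4.02 in quiescent cells, a difference close to the SD of either group. With tY(GUA)Q, tQ(UUG)Q and tS(GCU)Q1 it made up 69.6% ± 1.74 and 73.0% ± 4.30 of mitochondrial TPM. The lowest level was that of tT(UAG)Q2, the only tRNA row on the minus strand, at 6.23, 4.58 and 3.86 CPM in log and 59.8, 6.99 and 118 CPM in quiescent libraries. Its anticodon is not given in the row's name and was taken from the annotation.

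The largest changes among tRNAs were those for arginine and proline. tR(UCU)Q1 was at 49.9, 37.9 and 21.1 CPM in log and 550, 184 and 1651 CPM in quiescent libraries, and rose by 4.45 (SE 0.72). tP(UGG)Q was at 38.4, 20.4 and 11.7 CPM and then 436, 178 and 913 CPM, and rose by 4.44 (SE 0.63). In both, the lowest quiescent library exceeded the highest log library more than 3-fold. The smallest changes were those of tH(GUG)Q, from 28.4, 26.8 and 10.8 CPM to 81.9, 28.5 and 160 CPM (2.03, SE 0.55), and tS(UGA)Q2, from 42.5, 40.8 and 23.3 CPM to 131, 29.0 and 285 CPM (2.06, SE 0.63). tS(UGA)Q2, tA(UGC)Q and tG(UCC)Q were the 3 tRNA rows whose groups overlapped. In the order of changes, all 23 pairs of neighbouring tRNA rows lay closer together than their SE.

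**Figure D3:**
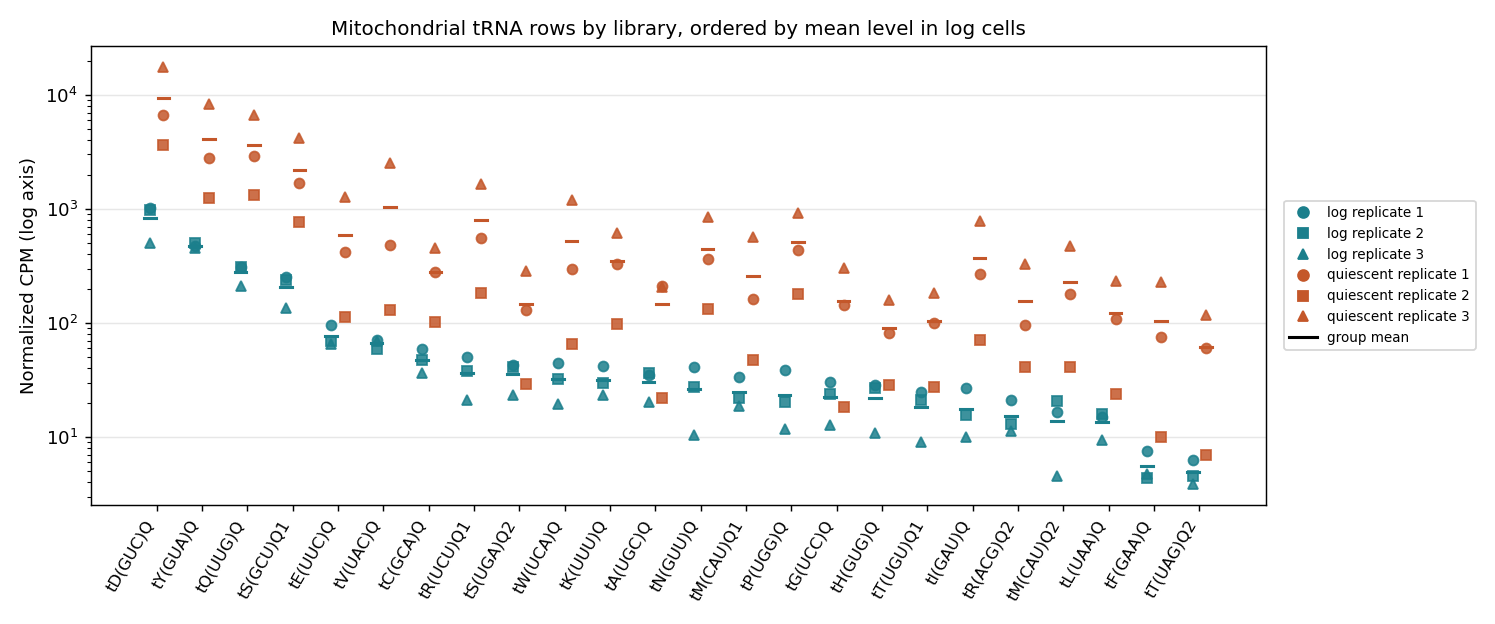
Normalized CPM (log axis) of the 24 mitochondrial tRNA rows in each library, ordered from left to right by mean level in log cells, with short lines for group means (n = 3 each). Quiescent replicate 3 is the highest quiescent library in 23 of 24 rows and quiescent replicate 2 the lowest in all 24, below at least 1 log library in tS(UGA)Q2, tA(UGC)Q and tG(UCC)Q.

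The quiescent libraries differed from each other in the same direction across tRNAs. Quiescent replicate 3 exceeded quiescent replicate 2 by 4.46-fold to 22.6-fold, with a median of 9.15-fold, while the mRNA rows differed by 1.55-fold to 3.84-fold (median 2.02-fold). Among log libraries, replicate 3 was the lowest in 22 of 24 tRNA rows. Without quiescent replicate 3, the median tRNA change was 2.44 in place of 3.43, and 23 of 24 rows rose, tS(UGA)Q2 being the exception (1.20, adjusted p = 0.0708). The log2 ratio of the tRNA sum was then 2.56 in place of 3.44. Within each state, the sums of nuclear tRNAs had the same order of libraries as those of mitochondrial tRNAs, with 81058, 59196 and 34345 CPM in log and 86132, 57662 and 113600 CPM in quiescent libraries. What this shared order has to do with the mitochondrial values was not tested.

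Levels of tRNA rows in log cells followed those in quiescent cells across rows (Spearman's rho 0.829, 24 rows of the same libraries). GC content and the number of matching codons in the 8 mRNAs were weakly related to the log level (rho 0.383 and -0.281) and to the change (rho -0.262 and 0.0805). These describe 24 rows that share libraries and are not replicates.

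The makeup of the mitochondrial RNA moved with the state. Messenger RNAs made up 54.4%, 58.0% and 61.8% of mitochondrial counts in log cells and 46.5%, 50.0% and 25.7% in quiescent cells, and tRNAs 39.5%, 35.4% and 31.6% against 44.0%, 37.9% and 67.8%. The mRNA shares did not overlap between states and the tRNA shares did. The COX1 row alone held a mean of 35.5% of mitochondrial counts in log and 30.4% in quiescent cells. Introns make up 87.5% of its span, and the part of intron reads in this share was not tested. Per length, mRNAs held 6.25% ± 1.17 of mitochondrial TPM in log and 2.34% ± 1.20 in quiescent cells, without overlap, and tRNAs 92.3% ± 1.25 and 95.6% ± 1.96 (SD, n = 3 each). Short rows weigh heavily per length, since no correction was made for fragments longer than the row.

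**Figure D4:**
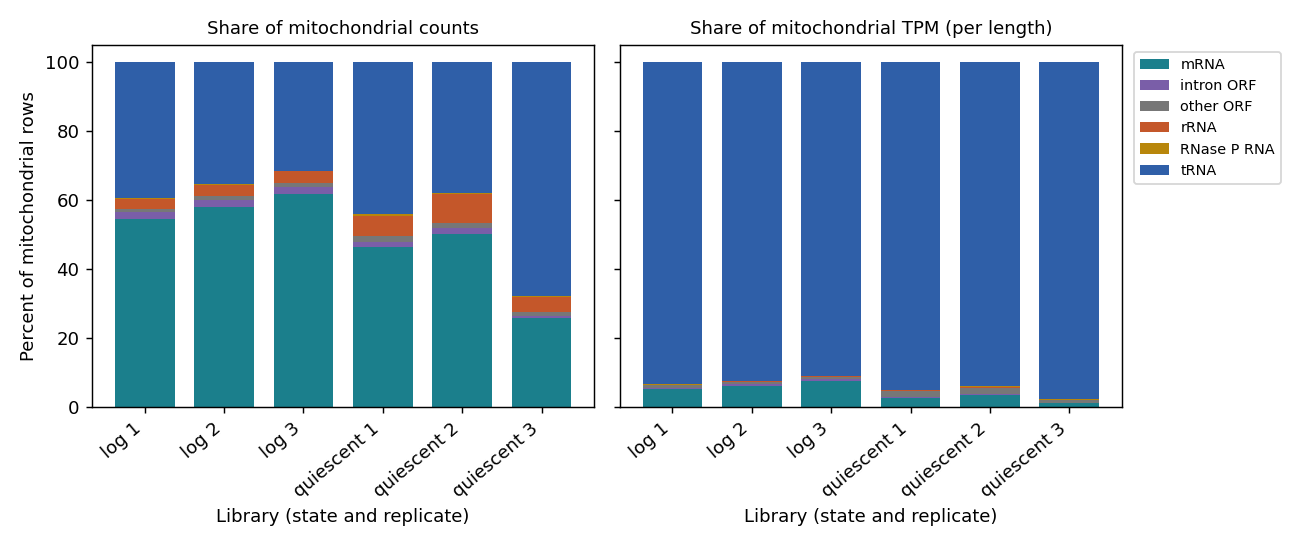
Share of each class in the counts (left) and in the TPM (right) of mitochondrial rows, in percent, for each library. The mRNA share of counts is lower in all 3 quiescent libraries than in any log library, and lowest in quiescent replicate 3 at 25.7%.

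Ratios between rows of 1 library do not depend on the scaling between libraries. Of 7 ratios computed on counts per length, 5 did not overlap between the states, each with an exact two-sided permutation p of 0.1, the smallest that 3 against 3 libraries allow (0.14 after Benjamini-Hochberg adjustment). The 21S to 15S ratio was 1.15, 1.05 and 1.19 on the log2 scale in log and 1.33, 0.92 and 0.58 in quiescent libraries, which overlapped (exact permutation p = 0.6). COX1 to ATP6, both downstream of the same promoter site, went from 0.41, 0.31 and 0.25 to 1.54, 1.56 and 1.10. The ratio was higher in each quiescent library. Introns make up 87.5% of the COX1 span, and the part of intron reads in this ratio was not tested.

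SCEI to 21S rRNA, the intron ORF over its host gene, was 1.60, 1.57 and 1.54 in log and 0.10, 0.50 and -1.38 in quiescent libraries. The log libraries were within 0.1 of each other and all quiescent values were lower. The libraries had been depleted of rRNA, and the part of depletion in this ratio was not tested. AI5_BETA to COX1 gave -1.94, -2.26 and -2.24 in log and -2.61, -2.997 and -2.03 in quiescent libraries, which overlapped (exact permutation p = 0.3). OLI1 to VAR1 went from a mean of 5.36 ± 0.507 to 6.74 ± 0.837 (SD, n = 3 each). RPM1 to COX2 went from -4.31 ± 0.229 to -2.27 ± 0.463, and COB to tE(UUC)Q from -3.54 ± 0.304 to -4.66 ± 0.800 (SD, n = 3 each). Introns make up 83.7% of the COB span, and the part of intron reads in the COB ratio was not tested.

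**Figure D5:**
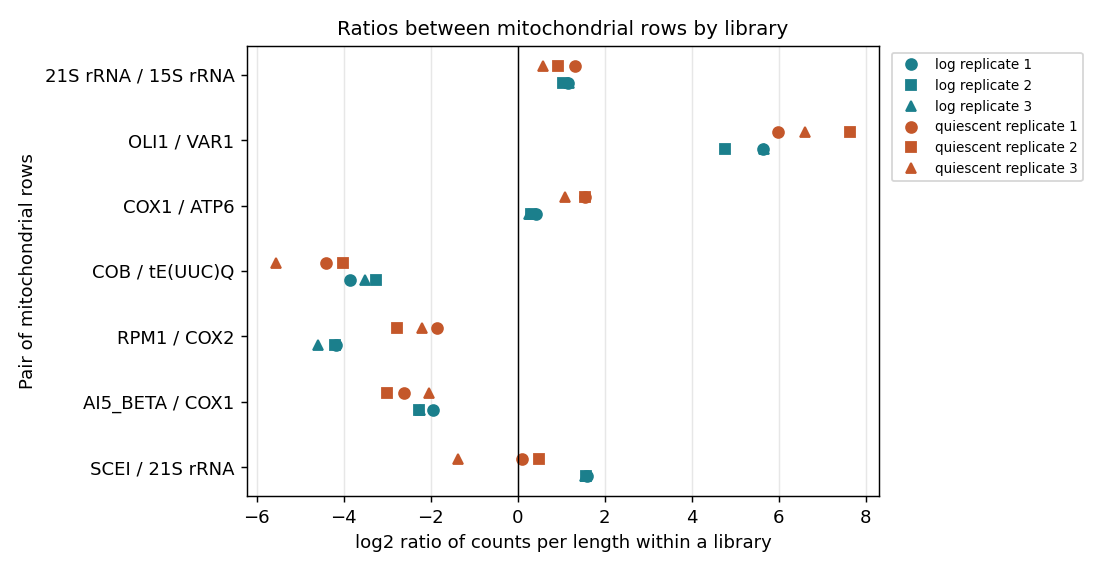
Log2 ratio of counts per length (x axis) for 7 pairs of mitochondrial rows, with 1 point per library. COX1 / ATP6, OLI1 / VAR1 and RPM1 / COX2 are higher, and COB / tE(UUC)Q and SCEI / 21S rRNA lower, in every quiescent library than in any log library, while 21S / 15S rRNA and AI5_BETA / COX1 overlap.

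Placed in gene order, changes were alike in some neighbours and unlike in others. The plus strand rows were divided at the promoter sites printed above, a grouping made after their values were seen. The stretch from the last site held tM(CAU)Q2, RPM1 and tP(UGG)Q, the last of which lies past the numbering origin of the circular map. All 3 rose, by 4.04 to 4.44. After the 15S rRNA site, the rRNA and tW(UCA)Q rose by 3.79 and 4.02. The stretch from the OLI1 site held OLI1, tS(UGA)Q2 and VAR1 at 0.74, 2.06 and -0.47, which had the lowest median of the 7 stretches, 0.74.

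Other stretches mixed classes with different changes. The stretch with the most rows, 18, ran from the tL(UAA)Q site and held tRNAs with COX2, Q0255 and COX3. Its values lay between 0.09 and 4.45 with a median of 3.397, and 17 of the 18 rose, all but Q0255. After the COX1 site, COX1, AI5_BETA, ATP8 and ATP6 were between 1.34 and 2.38. After the tE(UUC)Q site, the tRNA was at 2.95 and COB at 1.43. The 21S rRNA, at 3.55, was followed by SCEI, tT(UGU)Q1, tC(GCA)Q and tH(GUG)Q, which lay between 1.79 and 2.55. Levels differed sharply even where genes touch: tS(GCU)Q1 (chrMT:69203-69288) and tR(ACG)Q2 (chrMT:69289-69362) have 0 bases between them, and the first exceeded the second 10.1-fold to 15.9-fold in TPM in each of the 6 libraries. They rose by 3.41 and 3.34. This pair was chosen after its values were seen.

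Of the 10 other ORF rows, 4 were tested. Q0297, whose position the annotation does not give, was at 36.1, 28.1 and 17.8 CPM in log and 649, 262 and 919 CPM in quiescent libraries, and rose by 4.48 (SE 0.48). Q0182 was called as well (0.63, adjusted p = 0.0459) but lay at -0.38 on the TPM scale. The call was also lost with total-count scaling (0.40, adjusted p = 0.309), with no filter (0.48, adjusted p = 0.126) and when any library except quiescent replicate 2 was left out (adjusted p = 0.0594 to 0.136). Q0255 (chrMT:74495-75984), which overlaps the end of COX2, and Q0032 did not pass at 0.09 and 0.15, and both lay below 0 with total-count scaling and on the TPM scale. The 6 rows not tested (Q0010, Q0017, Q0092, Q0142, Q0143 and Q0144) had 0 to 15 reads per library.

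Nuclear genes for mitochondrial transcription, RNA processing, RNA turnover, translation and DNA maintenance went both ways. Of 50 such genes tested, 17 rose and 16 fell, with a median of -0.04, close to the 32.8% and 35.2% of all rows. The split depended on the scaling. With total-count scaling 10 rose and 16 fell, against 1879 and 2703 of all 7305 rows tested. With TMM from nuclear protein-coding rows 21 rose and 9 fell, against 2718 and 2296 of all rows. On the TPM scale 2 rose and 26 fell, against 14.5% and 53.9% of all rows. RPO41 (YFL036W), the mitochondrial RNA polymerase, was at 92.4, 94.7 and 101 CPM in log and 175, 197 and 136 CPM in quiescent libraries and rose by 0.82 (SE 0.19), although it lay at -0.19 on the TPM scale and the call was lost with total-count scaling (0.61, adjusted p = 0.0952). Its promoter factor MTF1 (YMR228W) did not pass at -0.21 (SE 0.29), and was at 0.0036 with TMM from nuclear protein-coding rows and called as fallen on the TPM scale (-0.84).

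Of 15 genes for RNA processing and splicing, 5 rose and 5 fell, against 32.8% and 35.2% of all rows tested. RPM2 (YML091C), the protein subunit of mitochondrial RNase P, went from 35.5, 47.3 and 30.0 CPM to 213, 179 and 197 CPM and rose by 2.39 (SE 0.22), the same direction as its RNA partner RPM1. CCA1 (YER168C), which adds the CCA end to tRNAs, went from 27.9, 38.8 and 29.6 CPM to 10.9, 12.7 and 11.4 CPM and fell by 1.46 (SE 0.21). MRS1 (YIR021W), a splicing factor for COB and COX1 introns, fell by 1.35 (SE 0.29). In the degradosome, which degrades mitochondrial RNA, the helicase gene SUV3 (YPL029W) fell by 0.62 (SE 0.21, adjusted p = 0.0227), a call lost with TMM from nuclear protein-coding rows and without log replicate 2 or 3 or quiescent replicate 3 (adjusted p = 0.0675, 0.118 and 0.0574). The exonuclease gene DSS1 (YMR287C) did not pass at -0.18 (SE 0.19), with 0.029 under TMM from nuclear protein-coding rows and a call as fallen on the TPM scale (-0.82).

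Of 22 genes listed as translational activators and mRNA-specific factors, 11 rose and 3 fell, against 32.8% and 35.2% of all rows tested. This list shares genes with that for RNA processing and splicing, so not all of its members act on single mRNAs. NCA3 (YJL116C), named for the control of ATP6 and ATP8 mRNA, went from 3.92, 6.41 and 3.06 CPM to 283, 312 and 242 CPM and rose by 5.97 (SE 0.32). CBP6 (YBR120C), needed for COB mRNA translation, rose by 1.64 (SE 0.34), a call lost on the TPM scale (0.50, adjusted p = 0.102). CBS1 (YDL069C), another COB activator, was at -1.21 (adjusted p = 0.0255) and AEP2 (YMR282C), which acts on OLI1 mRNA, at -0.78 (adjusted p = 0.0398). Both were called as fallen. The CBS1 call was lost without log replicate 1 or quiescent replicate 2 or 3 (adjusted p = 0.126, 0.0536 and 0.0892) and with TMM from nuclear protein-coding rows (adjusted p = 0.0532), and the AEP2 call without any library except quiescent replicate 2 (adjusted p = 0.0642 to 0.121) and with DESeq2 and 3 of the other scalings (adjusted p = 0.0509 to 0.114).

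Of 11 genes for maintenance and packaging of mitochondrial DNA, 1 rose and 7 fell, against 32.8% and 35.2% of all rows tested. The riser was MIP1 (YOR330C), the mitochondrial DNA polymerase, from 53.0, 58.0 and 54.3 CPM to 81.5, 92.7 and 101 CPM (0.73, SE 0.17), which lay at -0.25 on the TPM scale and lost its call with total-count scaling (0.49, adjusted p = 0.149). ILV5 (YLR355C), an amino acid biosynthesis enzyme that also packages mitochondrial DNA, went from 646, 598 and 731 CPM to 145, 82.4 and 130 CPM and fell by 2.47 (SE 0.26). RIM1 (YCR028C-A), the single-stranded DNA binding protein, fell by 2.23 (SE 0.37).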

How the data were processed

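RNA-seq was made from total RNA of 3 log and 3 quiescent samples, called biological replicates in the labels. Per the labels' protocols, 5 ug of RNA was treated with DNase, given spike-in RNA and depleted of rRNA, and 250 ng entered each library, read on an Ion Proton instrument. The authors deposited raw read counts per feature with feature lengths, per the file headers, with R64 as the build in the submitters' processing notes. For the aligner, the counter and the strand used, nothing was given in the sources used here. A further 6 columns of per-sample values were not used. Lengths were 1 base below the annotated span, introns included, in 46 of 46 mitochondrial rows with a position, so overlapping rows (COX1 with its intron ORFs, 21S with SCEI, COX2 with Q0255) may share reads.

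TPM was computed here from counts and lengths. Rows with a mean of at least 1 TPM (7305) were tested with the edgeR 4.0.16 quasi-likelihood test in R 4.3.3, two-sided, with TMM scaling, no covariate and Benjamini-Hochberg adjustment over all tested rows. SE values were computed as the fold change divided by the square root of F. The biological coefficient of variation was 0.264. For ratios, exact permutation tests (two-sided) were used. Alternatives were 4 other scalings, 2 other filters, DESeq2 1.42.0, limma 3.58.1 on log2(TPM + 1) or log2(TPM + 0.1), a replicate block and each library left out.

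Members and lists were chosen with earlier results of these data known. All mitochondrial rows could be named. Of nuclear factors, RPO41, MTF1, SUV3 and DSS1 were named, and from each other list the 2 rising and 2 falling called genes of largest change. One gene that this rule names is not reported here. Aliases were taken from the R64 annotation, where 37 members matched by name.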

Additional observations from a re-analysis of the deposited data

How the results depend on the processing

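The 41 tested mitochondrial rows gave 38 risen and 0 fallen in the edgeR test. With all 6 libraries, every alternative except limma on TPM gave 33 to 38 risen and 0 fallen. With limma on TPM, 26 rose and 2 fell (VAR1 and Q0255) with either pseudocount. Without 1 library, 35 to 39 rose in the edgeR test. Q0255 was called as risen there without quiescent replicate 2 (0.53, adjusted p = 0.0344). Of mRNA rows, 7 rose, against 3 with limma on TPM and 6 to 7 without 1 library. The median of all rows tested shifted by -0.22 with total-count scaling, 0.21 with TMM from nuclear protein-coding rows, and -0.77 or -0.995 with limma and a pseudocount of 1 or 0.1. The share of all calls that rose was 48.2% in the edgeR test and 21.2% with limma and a pseudocount of 1.

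The replicate numbers were not stated to pair the samples, and same-numbered libraries did not deviate together (r = 0.124, -0.149 and -0.170). With the replicate number as a block, 33 of 41 rows rose and 0 fell, among them 21 of 24 tRNAs, Q0255 lay at -0.14, and OLI1 lost its call (0.70, adjusted p = 0.0533).

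Nuclear factors, 17 risen and 16 fallen, gave 10 risen with total-count scaling and 9 fallen with TMM from nuclear protein-coding rows. With a minimum mean of 10 TPM they gave 4 and 4, but only 2593 of the 7305 rows were tested there. Of those rows 949 rose and 1086 fell. Factors below that minimum were left out, so these counts do not compare with 17 and 16. With limma on TPM at either pseudocount, the nuclear factors gave 2 and 26. Without 1 library they gave 15 to 17 risen and 10 to 17 fallen. Directions turned for OLI1 (-0.32 with both pseudocounts), Q0182 (-0.38 and -0.41), RPO41 (-0.19 and -0.21) and MIP1 (-0.25 and -0.28) with limma, and for MTF1 (0.0036) and DSS1 (0.029) with TMM from nuclear protein-coding rows. Q0032 turned with limma (-0.41 and -0.84), with total-count scaling (-0.11), and without a library (-0.14 to 0.61). Q0255 turned with limma (-0.97 and -1.19), with total-count scaling (-0.14), with no filter (-0.066), and without a library (-0.20 to 0.53). As shares of counts in place of TPM, the difference between quiescent and log cells was -17.4 percentage points for mRNAs, -0.667 for intron ORFs, 3.04 for rRNAs, 0.263 for RPM1 and 14.4 for tRNAs. The cause was not tested. Rows with few reads, such as the 6 not tested, limit what can be read from them.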
